A study of Drosophila melanogaster with 2 samples.

Results

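Small nuclear RNAs (snRNAs) and small nucleolar RNAs (snoRNAs) were examined in whole adult Drosophila melanogaster as the genes that the deposited annotation types as snRNA or snoRNA and places on a named chromosome arm. There were 319 such genes, 288 typed snoRNA and 31 typed snRNA, among the 19391 loci of the expression table. Each had a single model without introns, of 46 to 444 nt with a median of 132 nt. The values came from 2 libraries, 1 of females and 1 of males. Both were made from polyadenylated RNA of flies 3 to 5 days old, and each pooled 192 lines of the Drosophila Genetic Reference Panel (DGRP), inbred from a wild population, with 200 ng of total RNA contributed by every line. The labels name no treatment for either sex, the flies were kept on the same medium at 25 °C, and mating status was not given. Because each sex is a single library, no difference below has a replicate check and no p-value is given. Levels are in FPKM, the fragments assigned to a gene scaled to its length and to the size of the library.

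The spliceosomal snRNAs U1, U2, U4, U5 and U6 are the RNA cores of the particles that remove introns, and U11, U12, U4atac and U6atac serve the minor spliceosome, which removes a rare class of introns. Most snoRNAs guide chemical marks onto ribosomal RNA: box C/D snoRNAs direct 2′-O-methylation and H/ACA snoRNAs direct the change of uridine to pseudouridine. Small Cajal body RNAs (scaRNAs) do the same for the snRNAs. In flies most snoRNAs are cut out of introns of host genes, while the spliceosomal snRNA genes have promoters of their own. The mature RNAs do not carry the poly(A) tail by which the libraries were selected, so the values need not follow the amount of mature RNA.

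By the gene symbols the members comprised 130 box C/D snoRNAs, 114 H/ACA snoRNAs, 28 spliceosomal snRNAs, 15 scaRNAs, the pair 7SK and U7, and 30 snoRNAs whose symbol gives no class. 7SK holds the elongation factor P-TEFb in an inactive complex, and U7 acts in the processing of histone mRNA. One gene typed snRNA, snRNA:U3:22A, was counted with box C/D snoRNAs because U3 belongs to that class. The sexes of the libraries were checked on marker genes. All 8 ovary and yolk genes were higher in the female library, and 10 of 11 male markers were higher in the male library. The exception was bam, a germ cell differentiation gene that the ovary also uses, with 21.5 FPKM in females and 0.99 FPKM in males.

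Most members were listed at 0. Values above 0 were given for 93 members in females and 72 in males, 51 of them in both libraries. The background was 84.1% of all loci above 0 in females and 93.7% in males. A total of 205 members were at 0 in both libraries. A further 42 were above 0 in females only and 21 in males only, against 150 and 2006 of all 19391 loci. At least 1 FPKM was reached by 79 members in females, against a background of 52.5% of loci, and by 64 in males, against 70.8%. Their summed FPKM was 763 in females and 579 in males. That was 0.114% and 0.0608% of the FPKM summed over all loci, which is not a share of fragments because FPKM is scaled to length.

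Listed zeros followed the length of the gene model. All 114 members of up to 100 nt were at 0 in both libraries, as were all 526 other loci of that length in the table. The shortest locus of any kind with a value above 0 measured 105 nt, and the shortest member measured 110 nt. Above 100 nt the share of members above 0 in at least 1 library was 4.17% at 101 to 120 nt, 35.7% at 121 to 130 nt, 51.4% at 131 to 140 nt, 66.7% at 141 to 150 nt, 73.5% at 151 to 175 nt and 87.5% at 176 to 200 nt. All 10 members over 200 nt had a value. Other loci outside rRNA and tRNA gave 20.0%, 40.0%, 57.1%, 58.3%, 75.8% and 85.4% in those same bins up to 200 nt, from 50, 10, 7, 12, 33 and 48 loci. With rRNA and tRNA genes kept in, the share of other loci at 131 to 140 nt was 3.88% of 103. The share thus grew with length among members and among loci outside rRNA and tRNA, and was lower for members at 101 to 120 nt (1 of 24 members and 10 of 50 other loci). Genes that every cell uses were among the zeros, so a listed 0 is given as a listing and not as an absence of RNA.

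**Figure D1:**
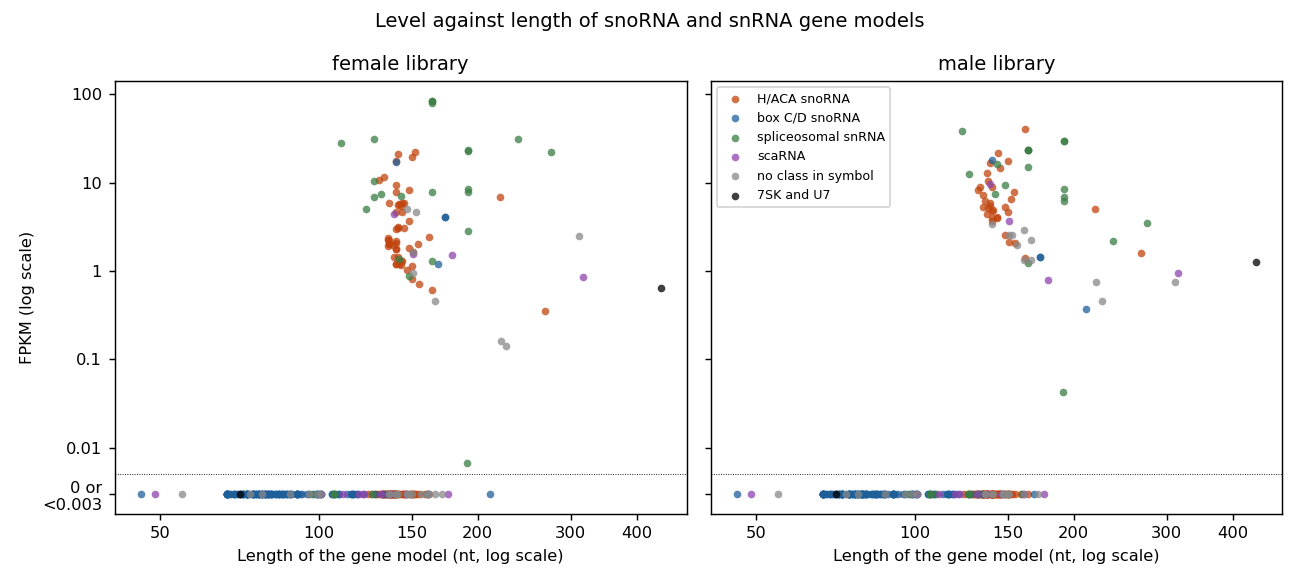
FPKM (log scale) against gene model length in nt (log scale) for the 319 members, female library on the left and male library on the right, with 1 point per gene coloured by class and values of 0 or under 0.003 FPKM drawn below the dotted line. No member of up to 100 nt lies above that line, and the lower edge of the points falls as length grows.

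The classes differed in length and in the share listed above 0, and the 2 were not separated by a test. Box C/D snoRNAs had a median length of 81 nt, and 105 of the 130 measured up to 100 nt. Only 5 box C/D genes were above 0 in either library. H/ACA snoRNAs had a median length of 140 nt (124 to 268 nt), and 68 of 114 were above 0 in at least 1 library, 53 in females and 33 in males. Spliceosomal snRNAs had a median of 154 nt, and 22 of 28 were above 0. At equal length the numbers were small and the order of the classes changed between bins. At 121 to 130 nt values were listed for 4 of 5 spliceosomal snRNAs, 1 of 6 H/ACA and 0 of 2 box C/D snoRNAs. At 151 to 175 nt the shares were 83.3% of 6 spliceosomal snRNAs, 61.5% of 13 H/ACA and 100% of 3 box C/D snoRNAs.

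The smallest values differed between the libraries at equal length. Among members of 131 to 140 nt, the lowest value was 1.20 FPKM in females and 3.43 FPKM in males. At 141 to 150 nt the lowest values were 0.811 FPKM in females and 2.56 FPKM in males (values under 0.001 FPKM left aside). At 151 to 175 nt they were 0.458 FPKM in females and 1.24 FPKM in males. A level between these limits thus had listed examples in females and none in males. Of 37 members from 111 nt upward that had at least 1 FPKM in females and 0 in males, 23 lay below the smallest male value of their length bin. None of the 20 members in the reverse position lay below the smallest female value. Counts between the sexes over all members, H/ACA snoRNAs and X-linked members are therefore given below with and without these 23 members. Counts for other classes, hosts and families include them unless stated or unless listed zeros are left out.

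Spliceosomal snRNA genes included the highest members. Genes of U1, whose RNA pairs with the 5′ splice site, led the members in the female library. The gene snRNA:U1:95Ca (arm 3R, 19685189 to 19685352, in no annotated intron or other exon, build BDGP5 here and throughout) had 84.3 FPKM in females and 23.1 FPKM in males. U1:95Cb had 83.9 FPKM in females and 23.1 FPKM in males, and U1:21D had 78.6 FPKM in females and 23.1 FPKM in males. The male values of these 3 genes were identical as listed, at equal length of 164 nt. Copies of 1 snRNA can share fragments where their sequences match, which was not checked here, so the value of a single copy is uncertain and the sum over copies is given as well. U1:95Cc went the other way, with 7.79 FPKM in females and 14.9 FPKM in males, while U1:82Eb was low in both, at 1.30 FPKM in females and 1.24 FPKM in males. Summed over its 5 genes, U1 came to 256 FPKM in females and 85.4 FPKM in males, a 3.00-fold ratio, which was 4.26-fold with the libraries scaled to equal sums and 1.52-fold with ribosomal protein genes set equal.

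U2 pairs with the branch point of the intron, and its 6 genes summed to 65.4 FPKM in females and 81.3 FPKM in males. That sum was 1.24-fold higher in males as deposited and 2.45-fold higher in males with ribosomal protein genes set equal, but 1.14-fold higher in females at equal sums. U2:34ABb and U2:34ABc shared their male value of 29.8 FPKM and had 23.0 and 23.2 FPKM in females. U2:34ABa had 2.80 FPKM in females and 6.94 FPKM in males. The other copies at 1 FPKM or more were U2:14B, at 8.53 FPKM in females and 6.25 FPKM in males, and U2:38ABa, at 7.79 FPKM in females and 8.37 FPKM in males. U2:38ABb stood apart from the rest at 0.00677 FPKM in females and 0.0425 FPKM in males, although its model of 191 nt was nearly as long as their 192 nt.

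All 3 genes of U4, the RNA that holds U6 in its inactive pairing, were higher in males. U4:39B had 7.02 FPKM in females and 16.3 FPKM in males, U4:25F had 0.872 FPKM in females and 9.45 FPKM in males, and U4:38AB had 1.37 FPKM in females and 7.48 FPKM in males. Their sum was 9.26 FPKM in females and 33.3 FPKM in males, 3.59-fold higher in males, 2.53-fold higher at equal sums and 7.09-fold higher with ribosomal protein genes set equal. U4 thus ran opposite to U1 in the same libraries under every scaling tried, and since a scaling multiplies both alike, that contrast does not depend on it.

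U5 aligns the exons for joining, and its genes were uneven. U5:14B (X, 16148041 to 16148150), at 110 nt the shortest member above 0, had 27.7 FPKM in females and was listed at 0 in males. U5:38ABb (10.4 FPKM), U5:23D (7.45 FPKM) and U5:34A (6.83 FPKM) were likewise above 0 in females and listed at 0 in males. U5:38ABa had 30.7 FPKM in females and 12.5 FPKM in males. In contrast, U5:63BC (3L, 3090801 to 3090923) had 5.02 FPKM in females and 38.1 FPKM in males, the highest snRNA value of the male library. The remaining copy, U5:35D, was at 0 in both. The sum of 88.2 FPKM in females and 50.6 FPKM in males changed direction with ribosomal protein genes set equal, to 1.13-fold higher in males. Males listed no value under 12.5 FPKM among members of 111 to 130 nt, and females none under 5.02 FPKM.

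The minor spliceosome genes U11 and U12, each a single copy, had the largest snRNA ratios toward females among genes above 0 in both libraries. U12:73B (3L, 16646869 to 16647106, 238 nt, within an intron of Baldspot on the other strand) had 31.3 FPKM in females and 2.20 FPKM in males, a 14.2-fold ratio. U11 (3L, 3893056 to 3893330, 275 nt) had 22.2 FPKM in females and 3.51 FPKM in males, 6.32-fold. With ribosomal protein genes set equal the ratios were 7.21-fold for U12 and 3.20-fold for U11. Their partners U4atac:82E (160 nt) and U6atac:29B (97 nt) were at 0 in both libraries, as were the 3 U6 genes (107 nt each) and U7 (71 nt). 7SK, the longest member at 444 nt, had 0.651 FPKM in females and 1.28 FPKM in males.

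**Figure D2:**
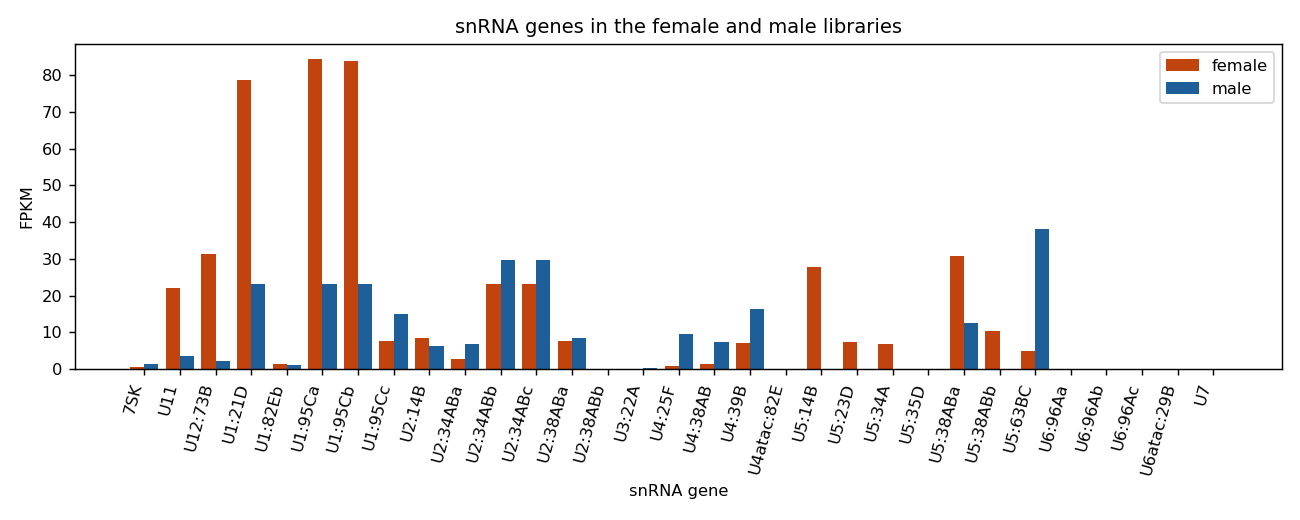
FPKM (linear axis from 0) of the 31 snRNA genes, female bar left of the male bar for each gene, with no error bars because there was 1 library per sex. The U1 genes U1:21D, U1:95Ca and U1:95Cb stand at 78.6 to 84.3 FPKM in females and at 23.1 FPKM in males, and U5:63BC at 38.1 FPKM is the highest male bar.

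Box C/D snoRNAs with a value were few. U3 acts in the cleavage of the ribosomal RNA precursor and, unlike most of its class, has genes of its own. Its copies snoRNA:U3:54Aa and snoRNA:U3:54Ab each had 4.09 FPKM in females and 1.44 FPKM in males, the same values in each library. U3:9B had 1.20 FPKM in females and was listed at 0 in males, and snRNA:U3:22A was at 0 in females and at 0.371 FPKM in males. The reference annotation gives the first 3 of these longer models, 210 nt for both copies at 54A and 213 nt for U3:9B, against 173 and 168 nt in the deposited one, so their values per length rest on the shorter models. The remaining gene was Or-CD2, an orphan with no assigned target, at 17.0 FPKM in females and 18.2 FPKM in males. Its exon of 140 nt overlaps an exon of CG8078, and fragments of the overlap cannot be assigned to either gene if strand was not used, which is not stated. Both U14 genes, which also act in precursor cleavage, were at 0 in both libraries.

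Among H/ACA snoRNAs the highest in females was Psi18S-531 (X, 657116 to 657267, in an intron of the noncoding gene CR42491), with 22.4 FPKM in females and 6.60 FPKM in males. Psi28S-1060 (X, 6636885 to 6637034, in an intron of RpL17) was near the top of both libraries, at 19.6 FPKM in females and 17.7 FPKM in males. Psi28S-3327c, in RpS4, had 17.3 FPKM in females and 3.67 FPKM in males. The numbers in these symbols name the uridine of the 18S or 28S ribosomal RNA that each is predicted to guide. Of the 10 highest snoRNAs in each library, 2 were shared, Psi28S-1060 and Or-CD2.

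In the male library Or-aca4 (2R, 13504261 to 13504422), another orphan, was the highest member of all with 40.2 FPKM, and it was listed at 0 in females. It lies within an intron of CG10936, which is on the other strand. Next among the snoRNAs was Psi28S-3571 (3R, 1423318 to 1423461, in exba), with 4.67 FPKM in females and 21.4 FPKM in males. Psi28S-1837c, in CG10576, was at 0 in females and at 16.7 FPKM in males. The mirror cases were Psi18S-920, in RpL10Ab, with 21.3 FPKM in females and 0 in males, and Psi28S-2444, in RpL11, with 10.6 FPKM in females and 0 in males. A run of H/ACA snoRNAs between 5 and 10 FPKM was likewise listed in a single library. Psi28S-1175a in RpS16 (5.92 FPKM), Psi28S-1232 (5.58 FPKM) and Psi28S-3436b (5.44 FPKM) in RpL17 were above 0 in females and at 0 in males. Psi28S-3316a in dom (8.26 FPKM), Psi28S-2996 in RpL5 (6.14 FPKM) and Psi18S-110 in CG13900 (5.47 FPKM) were at 0 in females and above 0 in males.

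**Figure D3:**
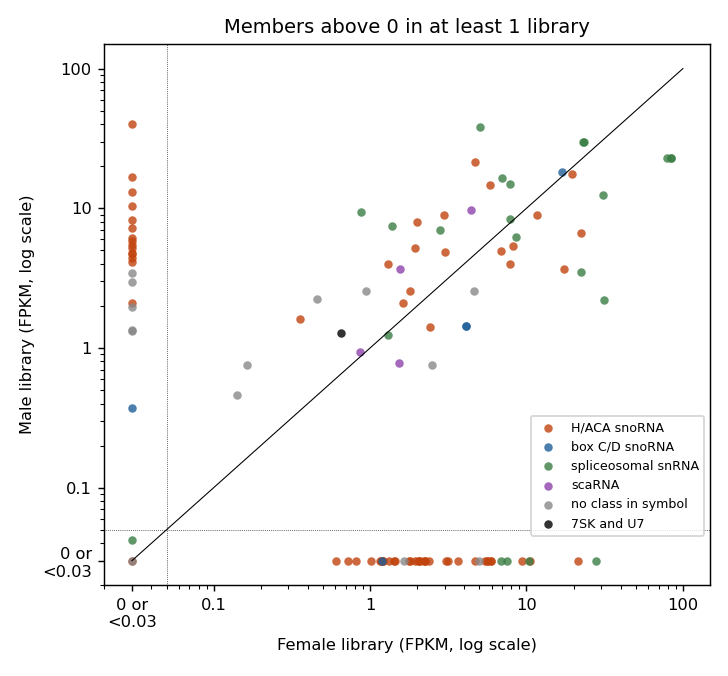
Female FPKM (horizontal, log scale) against male FPKM (vertical, log scale) for the 114 members above 0 in at least 1 library, coloured by class, with the line of equal values and values of 0 or under 0.03 drawn beyond the dotted lines. Along the margins lie members listed at 0 or under 0.03 FPKM in 1 library, more of them on the female axis (42 listed only in females) than on the male axis (21 listed only in males), and in the corner the 2 members under 0.03 FPKM in both.

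Differences between the sexes were measured as log2((female FPKM + 1)/(male FPKM + 1)), a scale that shrinks the ratios of low genes, for the 104 members with at least 1 FPKM in 1 library. At least 2-fold higher in females were 48 members (46.2%), against 21.5% of all 14108 loci tested. At least 2-fold higher in males were 32 members (30.8%), against 40.7% of all loci. The remaining 24 differed by less. The median was 0.52 over the members (95% order-statistic interval −0.35 to 1.14) and −0.58 over all loci tested. That interval is for the median over genes, which are not replicates, and does not give their spread. Single genes ran from −5.36 for Or-aca4 to 4.85 for U5:14B. Of the 48 calls toward females 38 rested on a listed 0 in males, and of the 32 toward males 20 rested on a listed 0 in females. Over all loci such zeros lay under 64 of 3034 calls toward females and 814 of 5743 toward males.

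Without these listed zeros calls in the 2 directions were nearly equal in number. Over the 46 members tested and above 0 in both libraries, 10 were at least 2-fold higher in females and 12 in males, with a median of −0.17. The same filter over all loci left 13230, of which 2970 were called toward females and 4929 toward males, with a median of −0.45. Leaving out the 23 members under the smallest male value of their length gave 25 toward females and 32 toward males, with a median of −0.35. All 23 were calls toward females, so this step could lower that count and the median and could not raise them. The split also moved with scaling, to 41 toward females and 44 toward males with ribosomal protein genes set equal, 50 and 23 at equal sums, and 54 and 21 when centred on all loci. Other loci of 110 to 444 nt, the length range of the members tested, were called toward females at 7.57% and toward males at 60.7% of 819.

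By class, 33 of 64 H/ACA snoRNAs tested were called toward females and 21 toward males. Only 18 had values in both libraries, and of those 2 were higher in females and 6 in males. With members under the smallest male value of their length left out, 13 of 44 H/ACA snoRNAs were called toward females and 21 toward males. Spliceosomal snRNAs had 10 calls toward females and 5 toward males among 21, and 6 and 5 among the 17 above 0 in both libraries. Of snoRNAs with no class in the symbol, 2 of 11 were called toward females and 6 toward males. Members of the X had 14 calls toward females and 0 toward males among 18 tested, where all X-linked loci gave 29.6% toward females and 31.3% toward males. Of those 14, 13 were listed at 0 in males, and 10 of the 14 lay in introns of RpS5a and RpL17. Without members under the smallest male value of their length, 6 of 10 X-linked members were called toward females and 0 toward males.

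Host genes were known for most members. An intron of an annotated gene on the same strand enclosed 281 of the 319, in 120 hosts. Of the hosts 81 held 1 member and 25 held 3 or more, 29 were genes of cytoplasmic ribosomal proteins, and 9 were noncoding RNA genes. Arpc2, a subunit of the Arp2/3 complex that starts actin branches, held 17 members. The chromatin remodeller gene dom and the noncoding host Uhg1 held 16 each, RpS5a 14 and Uhg5 11. Noncoding hosts of the Uhg series carried 48 members, of which 3 had a value in either library. All but 2 of the 48 were box C/D snoRNAs, and their median length was 79 nt. The 3 with a value were Or-CD2, Or-aca5 (8.20 FPKM in females and 5.35 FPKM in males) and Psi28S-2949 (0.722 FPKM in females and 0 in males).

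Spliced host RNA and embedded snoRNA were listed at very different levels. Among the 60 tested members above 0 in females that lay in a host, the member stood at a median of 0.514% of the FPKM of its host. For the 44 in males the median was 2.74%. The 2 medians cover different members, and the smallest listed values were higher in males at equal length, so they do not compare the sexes. Of the 281 members in a host, 197 were at 0 in both libraries. Members exceeded their host in 4 cases in females and 2 in males. Those were U1:95Cb and U1:95Cc in CG34355 in both libraries, U5:38ABb in sick and snoRNA:CG31191-a in CG31191 in females. The first 3 of these are snRNA genes, a class with its own promoters. CG31191-a had 4.97 FPKM in females, against 0.518 FPKM for its host, and it overlaps an exon of CR44106.

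In the deposited values hosts were mostly higher in females, whichever way the member within was called. Of the 120 hosts, 60 were at least 2-fold higher in females and 15 in males, with a median log2 ratio of 0.998, against 21.5% toward females and 40.7% toward males of all loci. The 15 include Ef1alpha48D, a model of 2341 nt listed at 0 in females and at 2578 FPKM in males. A listed 0 was thus not confined to short models, and the reason for this one was not tested. With ribosomal protein genes set equal, 23 hosts were at least 2-fold higher in females and 30 in males, with a median of 0.056. The median of all loci tested was −1.30 on that scale. All 23 and all 30 lay outside the ribosomal protein genes, whose median level that scale sets equal between the sexes. Outside the ribosomal protein genes the median over 91 hosts was 0.85 as deposited and −0.13 on that scale. Among the 25 intronic members called toward males, 22 had a host with the higher level in females as deposited, and 13 on that scale. The deposited share was alike for members called toward females, at 32 of 36, and for all intronic members tested, at 67 of 77. These counts over members take a host once for each member within it, so they are not counts of separate hosts. RpS5a alone, with 889 FPKM in females and 845 FPKM in males, gave 7 of the 32. RpS7 had 2378 FPKM in females and 1045 FPKM in males, and Psi18S-1377a, Psi18S-1377b and Psi18S-1377c within it were at 0 in females and at 5.85, 10.5 and 13.0 FPKM in males. The next copy in the same gene, Psi18S-1377d, had 2.04 FPKM in females and 0 in males, and Psi18S-1377e was at 0 in both. Also in RpS7, Psi28S-2626 had 5.70 FPKM in females and 0 in males.

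Similar splits within 1 host recurred. Of 14 hosts with at least 2 members tested, 6 held members called in both directions, 5 only toward females, 2 only toward males and 1 neither. Among those 6, every call toward females in Hrb98DE, dom and sick lay under the smallest male value of its length bin. In CG13900, RpS7 and exba at least 1 call toward females lay above it. All 8 H/ACA snoRNAs of exba had values, 6 in females and 5 in males. Psi28S-3571 and Psi28S-2442a (2.96 FPKM in females and 8.99 FPKM in males) were higher in males, whereas Psi28S-2442b had 5.94 FPKM in females and 0 in males. Psi28S-3091b had 11.6 FPKM in females and 8.95 FPKM in males, and its copy Psi28S-3091a was at 0 in females and at 7.20 FPKM in males. The host exba had 630 FPKM in females and 342 FPKM in males.

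RpS5a on the X (889 FPKM in females and 845 FPKM in males) carried 14 H/ACA snoRNAs of 3 repeated kinds and a single one. In females 9 of them had values of 1.18 to 7.84 FPKM, and in males 2 did. Psi18S-1854c had 7.84 FPKM in females and 3.99 FPKM in males, and Psi28S-1135f had 1.62 FPKM in females and 2.11 FPKM in males. The other 7 were at most 2.37 FPKM in females and at 0 in males, and each lay under the smallest male value for its length. In Hrb98DE, which encodes an RNA-binding hnRNP protein, 4 of 7 copies had a value in females and 1 in males. That one, Psi28S-3305a, was at 0 in females and at 4.70 FPKM in males. All 17 members of Arpc2 were H/ACA snoRNAs of 124 to 137 nt, and 2 of them, Psi18S-525h and Psi18S-525i, had values, at 2.24 and 2.25 FPKM in females and 0 in males.

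**Figure D4:**
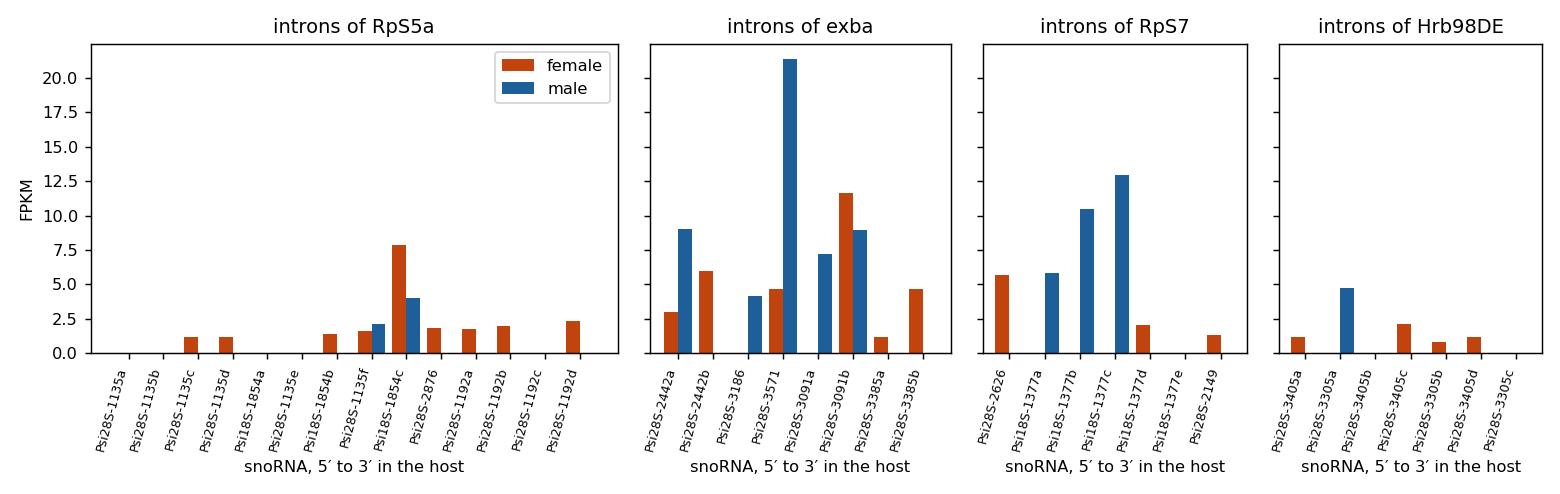
FPKM (linear axis from 0) of the H/ACA snoRNAs in introns of RpS5a, exba, RpS7 and Hrb98DE, ordered 5′ to 3′ along each host, female bar left of the male bar. In RpS7 and exba neighbouring copies have bars of opposite sex, while in RpS5a the values are 1.18 to 7.84 FPKM in females and only 2 of 14 are above 0 in males.

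Copies of 1 snoRNA within a family were uneven in general. By symbol, 136 snoRNA genes fell into 44 families of at least 2 members. In 26 families every member was at 0 in both libraries. Of the other 18, 12 mixed members above 0 with members at 0 in both, and 3 held members called in both directions. Those 3 were Psi18S-1377, Psi28S-2442 and Psi28S-3316. Only in Psi28S-2442 did the call toward females lie above the smallest male value of its length bin. Only U3 among the snoRNA families had copies with identical values.

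scaRNAs were counted from the deposited symbols or from the newer symbols of the reference annotation, which matched 288 of the 319 identifiers. Of 15 scaRNA genes, 4 had values, all in both libraries. The gene tra2-a, now named scaRNA:PsiU5-44, had 4.40 FPKM in females and 9.67 FPKM in males. The gene bur-a had 1.55 FPKM in females and 3.69 FPKM in males, Prp8-a had 1.53 FPKM in females and 0.783 FPKM in males, and MeU5-C46 had 0.860 FPKM in females and 0.940 FPKM in males. None of the 3 with at least 1 FPKM reached 2-fold on the log2(FPKM + 1) scale, although the plain ratios of tra2-a and bur-a exceeded 2. Prp8-a lies in an intron of Prp8, which encodes a core spliceosome protein.

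Genes of the proteins that bind, modify or assemble these RNAs were higher in females almost throughout. Of 59 genes in 6 lists, 50 were at least 2-fold higher in females and 0 in males, with a median log2 ratio of 1.60, against 21.5% toward females and a median of −0.58 over all loci. With ribosomal protein genes set equal the median was 0.69, 53 of the 59 were higher in females, 15 were at least 2-fold higher in females and 1, coil, in males. The 6 lower in females on that scale were CG2021, snRNP-U1-C, Prp31, Dim1, Pbp45 and coil, the last of them lower in females also in the deposited values.

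The snoRNP core genes had the highest ratios. All 4 box C/D core genes were called toward females, with a median of 2.88. They were Fib, the methyltransferase fibrillarin, with 182 FPKM in females and 31.5 FPKM in males, hoip, with 390 FPKM in females and 29.2 FPKM in males, Nop56, and nop5. All 4 H/ACA core genes were as well, with a median of 2.32. Nop60B, the pseudouridine synthase dyskerin, had 308 FPKM in females and 21.3 FPKM in males. It is also the host of 7 members, of which 1, Psi18S-1820, had a value, at 9.31 FPKM in females and 0 in males.

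snRNP proteins followed with smaller ratios. Of 16 Sm and LSm genes, most of which encode parts of the rings on snRNAs, 13 were called toward females (median 1.46). SmB had 79.7 FPKM in females and 17.9 FPKM in males. In the list of 15 other snRNP proteins 12 were (median 1.27). That list also holds hoip, whose protein binds both U4 and box C/D RNAs, so hoip counts in both lists and once among the 59. Among 16 genes of snRNA transcription and of Integrator, the complex that cuts the 3′ end of snRNAs, 15 were (median 1.61), with IntS12 at 23.7 FPKM in females and 2.63 FPKM in males and Pbp95 at 14.5 FPKM in females and 1.85 FPKM in males. In the list of the SMN complex and coilin 3 of 5 were called toward females (median 1.24). The exception there, coil, had 12.5 FPKM in females and 15.5 FPKM in males, a log2 ratio of −0.29 that became 0.18 at equal sums. In whole flies a higher level per cell and a larger share of a tissue in the RNA cannot be told apart, and the ovary markers were 3.73 to 5.73 log2 units higher in the same female library. Their part in the ratios of the protein genes was not tested.

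**Figure D5:**
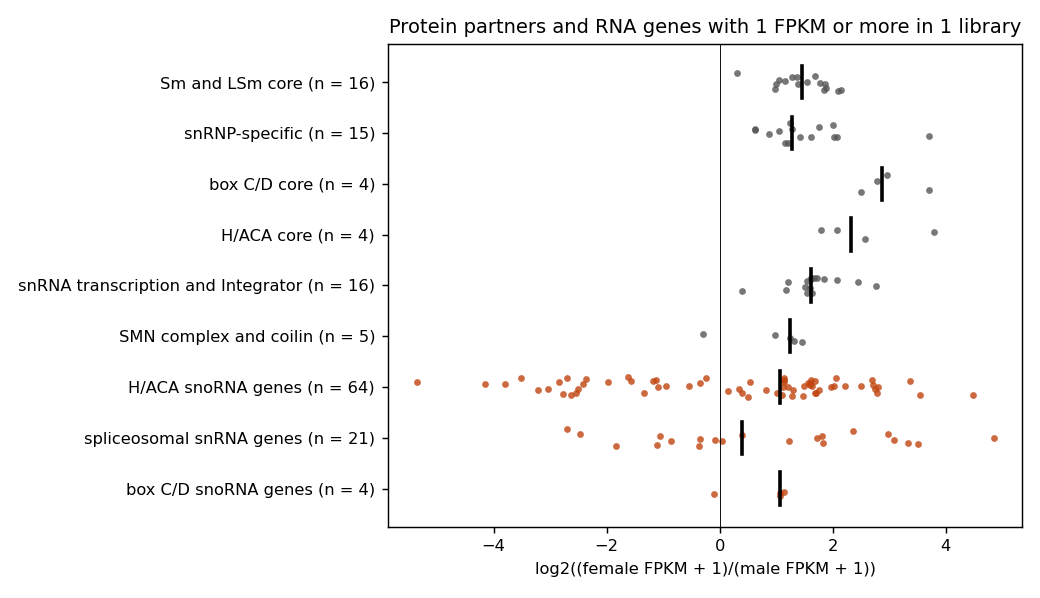
Points are genes with at least 1 FPKM in 1 library and bars are medians, on the scale log2((female FPKM + 1)/(male FPKM + 1)), for the 6 protein lists (grey) and 3 classes of RNA genes (orange-red), with positive values higher in females. Medians of the protein lists run from 1.24 to 2.88 with 1 gene below 0, whereas H/ACA snoRNA and spliceosomal snRNA genes lie widely on both sides of 0.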

How the data were processed

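The authors deposited 1 table of FPKM values with a column per library and 1 annotation of gene and transcript models, whose other numeric columns are coordinates. The unit was taken from the name of the deposited table. TopHat2 2.0.8, Cufflinks 2.0.2 and build BDGP5 are named in the submitters' processing notes. Their options, the use of strand and the treatment of lengths near the fragment length are not given in the sources used here. FPKM of such short models depends strongly on that treatment.

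FPKM values were used as deposited. Ratios were taken as log2((female + 1)/(male + 1)) for loci with at least 1 FPKM in 1 library and called at 2-fold. An FPKM table holds no counts. A common step in the low values of longer single-transcript loci would put the depth at 79.5 (females) and 81.6 (males) in units of 1e6 fragments, but 60.5% of checked female values and 43.1% of male values lay within 0.15 of a whole step, against 30% by chance. Depth therefore stays uncertain, and no count test or counting interval was made.

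Hosts were annotated genes with an intron enclosing the member on the same strand, the smallest where several did. Classes came from symbols. Alternatives changed the pseudocount, the minimum, the fold threshold, the scaling (equal sums, ribosomal protein medians set equal, or centring on all loci) and which members entered. Of the identifiers, 288 matched the BDGP6 annotation, 279 with the same length, and its coordinates were not used. No nucleotide sequence was used. Named members are all snRNAs, the snoRNAs highest in each library or in ratio (10 each), those at 0 in 1 library and at 10 FPKM or more in the other, the U3 and U14 genes, and members of the hosts described. The members and lists were chosen with earlier results of these data known. The calling step was tested on simulated data. Python 3.11.15, numpy 2.4.6, pandas 2.3.3, scipy 1.17.1 and matplotlib 3.10.9 were used.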

Additional observations from a re-analysis of the deposited data

How the results depend on the processing

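Results that moved are given here, and causes beyond what each setting removes were not tested. Counts toward females and males were 48 and 32, and became 20 and 13 with a pseudocount of 5, 20 and 20 with a minimum of 5 FPKM, 10 and 10 with 1 FPKM in both libraries, 19 and 17 at 4-fold, 10 and 12 with both values above 0, and 25 and 32 without members under the smallest value of their length. The last pair of settings was chosen after seeing the data. They were 41 and 44 with ribosomal protein genes set equal, 50 and 23 at equal sums, and 54 and 21 when centred on all loci. The median log2 ratio of the members reversed to −0.092 with 1 FPKM in both libraries, −0.24 with ribosomal protein genes set equal, −0.17 with both values above 0 and −0.35 without members under the smallest value of their length. In these 4 settings spliceosomal snRNA (0.40) was at −0.027, −0.48, −0.092 and 0.04. H/ACA snoRNA (1.06) reversed to −0.47 with a minimum of 5 FPKM, −0.25 with 1 FPKM in both libraries, −0.30 with both values above 0 and −0.75 without members under the smallest value, and moved to 1.98 with a pseudocount of 0.1 and 1.64 when centred. Box C/D snoRNA (1.06, 4 genes) was −0.095 with a minimum of 5 FPKM, 1.45 with a pseudocount of 0.1, 1.24 at equal sums and 1.64 when centred. The protein lists together (1.60) gave 1.22 with a pseudocount of 5, 2.02 at equal sums, 0.69 with ribosomal protein genes set equal and 2.18 when centred. Scaling to equal sums moved the median of all loci tested to −0.09 and the ribosomal protein scaling to −1.30, against −0.58 as deposited. A minimum of 10 FPKM left 17 members in females and 17 in males. Counting hosts on either strand gave 7 members above their host in females, against 4. No paired analysis was possible because there was 1 library per sex.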

Other observations

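Other small structural RNAs outside the snRNA and snoRNA types, looked up after the values above were seen, were higher in the male library. Both 7SL genes, which encode the RNA of the signal recognition particle, had 18.8 and 19.0 FPKM in females and 61.8 FPKM each in males, and the male values were identical as listed. Their sum was 3.28-fold higher in males, 2.30-fold at equal sums and 6.47-fold with ribosomal protein genes set equal. The RNA of RNase P, which trims the 5′ end of tRNA precursors, had 3.03 FPKM in females and 11.4 FPKM in males. The related RNA of RNase MRP had 1.97 FPKM in females and 2.89 FPKM in males, a log2 ratio of −0.39 and so not called. Of 819 loci outside the members tested at 110 to 444 nt, 60.7% were called toward males and 7.57% toward females. All 36 genes named snmRNA in the annotation were under 0.001 FPKM in both libraries, and the longest of them measured 157 nt. These 4 genes of 7SL, RNase P and RNase MRP measured 299 to 382 nt, above the lengths at which most snoRNAs were listed at 0.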
